A study of Mus musculus with 16 samples.

Results

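The genes described here are 36 that belong to the interferon response and to antigen presentation, measured in the cortex of mice that lack progranulin. They were chosen by their symbols, but with earlier results of these data known, and all 36 were found among the 53801 gene rows of the count table. By role they are 6 signalling proteins and regulators (Stat2, Irf7, Irf9, Usp18, Isg15 and Trim30a), 15 antiviral effectors (Ifit1, Ifit2, Ifit3, Ifitm3, Ifi27, Bst2, Rtp4, Oasl2, Xaf1, Rsad2, Ifih1, Parp14, Samd9l, Sp100 and Lgals3bp), 3 guanylate-binding GTPases (Gbp2, Gbp3 and Gbp7), 3 MHC class I chains (B2m, H2-D1 and H2-K1), 3 peptide-loading proteins (Tap1, Tap2 and Tapbp), 3 immunoproteasome subunits (Psmb8, Psmb9 and Psmb10) and 3 MHC class II genes (Cd74, H2-Aa and H2-Ab1). Of the 36, 18 had enough counts to be tested and 18 did not. Among the untested, 5 had fewer than 30 counts over all 16 libraries: Oasl2 with 25, H2-Ab1 with 24, Usp18 with 19, Irf7 with 10 and Cd74 with 3.

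The study asked how loss of Grn, the gene of progranulin, alters the mouse cortex, and what a brain-penetrant form of the protein made in the liver does to it. One group, KO AAV (n = 5, 3 males and 2 females), consisted of C57BL/6 mice with a knockout of Grn that were given an adeno-associated virus through the tail vein 8 months earlier, at 300000000000 vector genomes. The virus, AAV(L):bPGRN, targets the liver and encodes human progranulin joined to 8D3, a single-chain antibody fragment that binds the mouse transferrin receptor. A second group, KO saline (n = 5, 4 males and 1 female), had the same knockout and was given saline, and the third, WT saline (n = 6, 3 males and 3 females), was wild type for Grn and was given saline. All animals were 12 to 12.93 months old and were perfused before the brain was frozen, with 1 library per animal. No WT animal received the virus, so an effect of the virus itself and of the protein it encodes cannot be told apart here.

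Interferons bind receptors on the cell surface and act through Janus kinases and STAT proteins. Type I interferon brings STAT2 and IRF9 into a complex that binds interferon-stimulated response elements, while interferon gamma acts at gamma-activated sites. The genes switched on this way include blocks to viral entry and replication, and much of the machinery that cuts proteins into peptides and shows them on MHC class I. In the healthy brain these genes are held low, and microglia and endothelium are the cells best known to express MHC class I and interferon-stimulated genes.

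The DNA-binding sites of that pathway can be read in the promoters of the members, where 29 of the 36 had an entry among 300-base RefSeq promoters of GRCm38.p6 (250 bases before the start of the gene and 50 after). Usp18, Ifi27, Rtp4, Parp14, Tap2, Cd74 and H2-Ab1 had none. The core of the response element, searched on both strands as GAAA, any 2 bases and GAAA, was present in 13 of the 29 (44.8%), in 25 of 74 other genes of the pathway (33.8%) and in 1079 of all 27025 genes with a promoter (3.99%). The gamma-activated site, searched on both strands as TTCNNNGAA, was present in 5 of the 29 (17.2%), in 17 of the 74 (23%) and in 9.55% of all genes. The windows below show the response-element core in members of several roles whose levels are given further on; capitals mark the core, which reads TTTC, 2 bases and TTTC where it lies on the opposite strand of the gene, and each is written 5′ to 3′ along the gene. They come from chr2:122147533-122147572 (B2m, plus strand), chr3:142559984-142560023 (Gbp3, plus), chr3:142530268-142530307 (Gbp7, plus), chr19:34640770-34640809 (Ifit1, plus), chr19:34583358-34583397 (Ifit3, plus), chr10:128270261-128270300 (Stat2, plus), chr4:156200860-156200899 (Isg15, minus) and chr12:26456548-26456587 (Rsad2, minus). A single core is marked per window, and those of Isg15 and Gbp3 hold further cores that lie partly or wholly in lower case.
B2m: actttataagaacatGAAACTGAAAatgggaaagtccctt
Gbp3: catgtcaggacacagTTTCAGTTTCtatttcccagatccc
Gbp7: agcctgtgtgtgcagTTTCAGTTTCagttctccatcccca
Ifit1: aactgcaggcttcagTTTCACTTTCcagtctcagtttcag
Ifit3: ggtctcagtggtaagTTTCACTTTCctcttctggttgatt
Stat2: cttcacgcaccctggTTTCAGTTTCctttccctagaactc
Isg15: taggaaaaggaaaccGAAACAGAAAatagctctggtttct
Rsad2: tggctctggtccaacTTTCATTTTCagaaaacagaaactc

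Gene counts came from a 3' tag method with molecular identifiers, and totals ran from 1614251 to 1867168 in KO AAV, from 1351974 to 1720657 in KO saline and from 1626788 to 2119019 in WT saline. Levels below are counts divided by the TMM-scaled library total (CPM), with the SD over animals; since tags are not corrected for the gene, levels of different genes are not compared. Grn had no count in any of the 10 knockout libraries, against 226 counts in the 6 WT saline libraries (20.4 ± 9.12 CPM, 9.71 to 36.6). All 36 members together had 10564 counts, of which B2m gave 39.9%. The tissue label was met by 10 markers of cortical neurons, whose summed level was 6559 to 8650 CPM in KO AAV, 6685 to 9214 CPM in KO saline and 5910 to 9347 CPM in WT saline.

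KO saline against WT saline, the comparison of knockout with wild type without the virus, gave no member that passed edgeR's quasi-likelihood test. The smallest Benjamini-Hochberg adjusted p of a member was 0.995, and 5 of all 10363 tested genes passed (0.0482%), 4 of them with a log2 change above 0 (0.0386%). Of the 18 tested members 13 had a log2 change above 0 and 5 below, where 50.7% of all genes lay above 0 and 49.3% below, and the members' median log2 change was 0.29 (0.0027 over all genes). At an edgeR p under 0.05 without adjustment stood B2m with a log2 change above 0, and Gbp3 and Psmb10 below, 3 of 18 where 4.12% of all genes had such a p (2.31% above 0 and 1.81% below). The median rested in part on single libraries: it was 0.10, with 10 members above 0, without KO saline replicate 3, and 0.17 without WT saline replicate 4. The count of 3 was 1 without WT saline replicate 1, KO saline replicate 4 or KO saline replicate 5. Without WT saline replicate 1 Gbp3 fell below the count filter, so only 17 members were tested there.

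KO AAV against KO saline, the comparison of the virus with saline in knockout mice, also gave no member that passed (smallest edgeR adjusted p 1.00; 2 of all genes passed, or 0.0193%). Here 3 tested members had a log2 change above 0 and 15 below, where 47.3% of all genes lay above 0 and 52.7% below. The members' median was -0.22 (-0.011 over all genes), and 3 stood at an edgeR p under 0.05 without adjustment, Rtp4, Lgals3bp and Tapbp, all below 0 (2.55% of all genes had such a p, 0.868% above 0 and 1.68% below). Without KO saline replicate 3 that count was 0. Both of these comparisons use the same KO saline libraries, so a high value there counts as an increase in the first and as a decrease in the second.

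KO AAV against WT saline, which includes no KO saline library, gave no member that passed either (smallest edgeR adjusted p 0.881; 1 of all genes, or 0.00965%, which is Grn). There were 4 tested members above 0 and 14 below, where 48.5% of all genes lay above 0 and 51.5% below, and the median was -0.18 (-0.0078 over all genes). Rtp4 and Psmb10 had an edgeR p under 0.05 without adjustment, both below 0 (3.99% of all genes had such a p, 1.55% above 0 and 2.44% below). The median was -0.062 without WT saline replicate 6. The count was 1 without any one of WT saline replicates 1, 4 and 6 and KO AAV replicates 2, 3, 4 and 5. No tested member had groups free of overlap in any comparison, as 0.396% of all tested genes had in KO saline against WT saline, 0.511% in KO AAV against KO saline and 0.318% in KO AAV against WT saline. DESeq2, limma-voom and limma on the deposited CPM also passed no member, and DESeq2 gave a p under 0.05 without adjustment to 3 members in KO saline against WT saline (3.36% of all genes), 2 in KO AAV against KO saline (1.8%) and 1 in KO AAV against WT saline (3.33%).

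**Figure D1:**
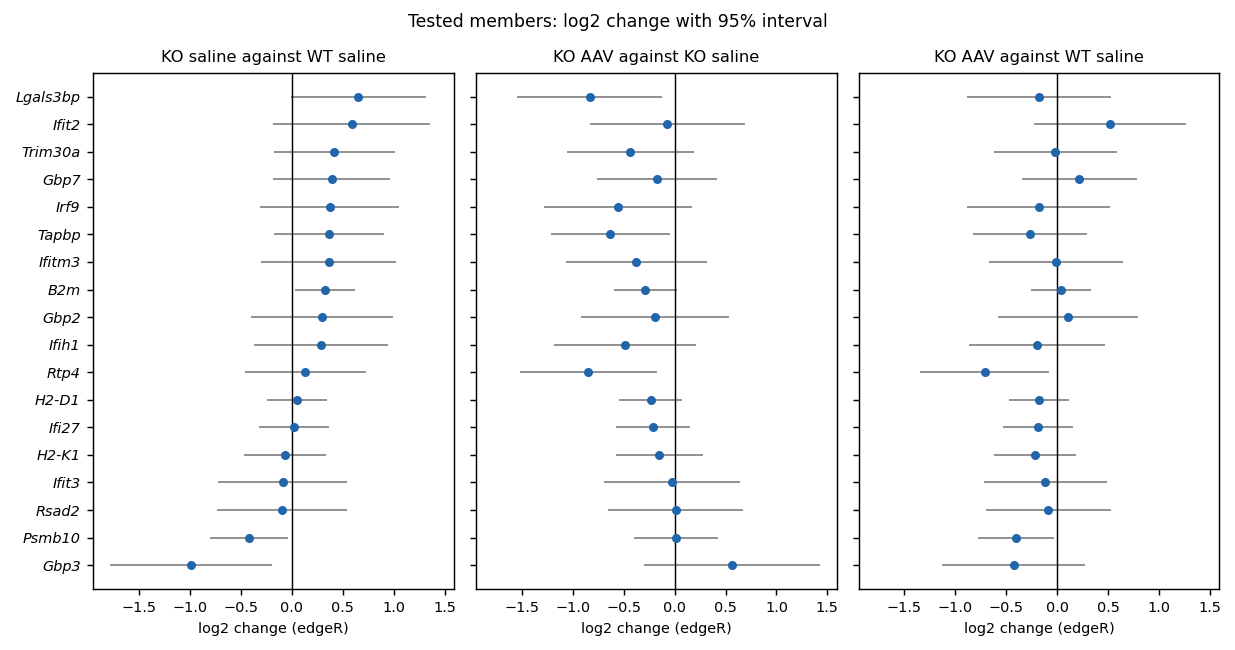
Fitted log2 change (points) with its 95% interval (lines) of the 18 tested members in each comparison, in the order of their change in KO saline against WT saline. Most intervals cross 0, and the points lie mostly right of 0 in KO saline against WT saline (13 of 18) and mostly left of it in the other comparisons (15 and 14 of 18).

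Among the signalling proteins and regulators only Irf9 and Trim30a were tested, and both averaged most in KO saline. Trim30a (chromosome 7, 104409025 to 104465193, minus strand of GRCm38), a tripartite-motif protein known in mouse to restrain Toll-like receptor signalling, had 12.7, 8.94, 5.27, 8.92 and 12.9 CPM in KO AAV. It had 9.57, 14.7, 9.92, 16.02 and 14.7 CPM in KO saline, and a lowest, median and highest value of 6.33, 8.05 and 19.4 CPM in WT saline. The groups overlapped, and the highest of all 16 values was in WT saline replicate 5. Its log2 change was 0.41 in KO saline against WT saline (SE 0.29, 95% interval -0.18 to 1.01; edgeR adjusted p = 0.995) and -0.43 in KO AAV against KO saline (SE 0.30, -1.06 to 0.19; adjusted p = 1.00). The first was 0.69 without WT saline replicate 5 and the second -0.27 without KO AAV replicate 3. Irf9, the DNA-binding part of the type I interferon complex, averaged 5.38 ± 1.75 CPM in KO AAV, 8.05 ± 2.98 CPM in KO saline and 6.08 ± 2.93 CPM in WT saline (SD). An exon of Irf9 overlaps one of Rnf31 on the same strand, so counts of Irf9 may be shared. The log2 change of Irf9 was 0.37 (SE 0.33) in KO saline against WT saline and -0.55 (SE 0.35) in KO AAV against KO saline. In KO saline against WT saline leaving out KO saline replicate 1 gave Irf9 a change of 0.23, leaving out KO saline replicate 3 gave 0.21, and so did leaving out WT saline replicate 2. Leaving out WT saline replicate 5 gave it 0.56, and over all alternatives the change of Irf9 ran from 0.21 to 1.03. Stat2, its partner in that complex, was below the count filter and averaged 2.91 ± 0.905 CPM in KO AAV, 3.74 ± 1.21 CPM in KO saline and 3.71 ± 0.851 CPM in WT saline.

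The antiviral effectors held 8 tested members, and their log2 changes lay on both sides of 0 in each comparison. In KO saline against WT saline 6 of the 8 lay above 0 (50.7% of all genes). In KO AAV against KO saline 7 lay below 0 (52.7%), and in KO AAV against WT saline 7 lay below 0 (51.5%). The summed level of all 15 effectors was 75.1 to 97.2 CPM in KO AAV, 87.2 to 145.8 CPM in KO saline and 85.9 to 111.9 CPM in WT saline, so the ranges overlapped.

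Lgals3bp (chromosome 11, 118392751 to 118402092, minus strand), a secreted glycoprotein that binds galectin-3, had 8.45, 6.14, 11.1, 6.69 and 1.85 CPM in KO AAV. It had 8.77, 9.52, 19.1, 12.0 and 12.8 CPM in KO saline, and 5.47, 6.45 and 14.6 CPM (lowest, median and highest) in WT saline. Apart from WT saline replicate 6, no WT saline library reached the KO saline range, and 4 of 5 KO AAV libraries lay below that range. The log2 change was 0.65 in KO saline against WT saline (SE 0.32, 95% interval -0.01 to 1.32; edgeR adjusted p = 0.995) and -0.83 in KO AAV against KO saline (SE 0.34, -1.55 to -0.12; adjusted p = 1.00). Without KO saline replicate 3, the library with 19.1 CPM, the changes of Lgals3bp were 0.46 and -0.64.

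Rtp4 (chromosome 16, 23520291 to 23614222, plus strand), a chaperone of G protein-coupled receptors that is induced by interferon, was lowest in the virus-treated mice. It had 5.81, 3.91, 3.16, 3.34 and 3.08 CPM in KO AAV, against 6.38, 8.06, 10.7, 5.15 and 5.50 CPM in KO saline and 4.57, 5.37 and 10.9 CPM (lowest, median and highest) in WT saline. In 4 of the 5 KO AAV libraries the level lay below every saline library of either genotype, and KO AAV replicate 1 lay within both saline ranges. The log2 change was -0.85 in KO AAV against KO saline (SE 0.32, 95% interval -1.52 to -0.17; edgeR adjusted p = 1.00). Against WT saline it was -0.71 (SE 0.31, -1.35 to -0.08; adjusted p = 0.881). In KO saline against WT saline Rtp4 stayed within 1 SE of 0. An exon of Rtp4 overlaps one of Gm45338 on the same strand, so its counts may be shared.

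Ifi27 (chromosome 12, 103434211 to 103440239, plus strand), a small hydrophobic protein of interferon-treated cells, had the most counts of the effectors. It had 30.6, 35.7, 24.8, 32.3 and 24.0 CPM in KO AAV, against 36.7, 27.1, 45.0, 36.6 and 26.3 CPM in KO saline, and 26.8, 33.6 and 40.4 CPM (lowest, median and highest) in WT saline. The ranges of all 3 groups overlapped. Its log2 change was -0.21 in KO AAV against KO saline (95% interval -0.58 to 0.15) and -0.19 in KO AAV against WT saline (-0.53 to 0.15), and within 1 SE of 0 in KO saline against WT saline. The change in KO AAV against KO saline was -0.097 without KO saline replicate 3 and -0.14 without KO AAV replicate 5, and that in KO AAV against WT saline was -0.12 without KO AAV replicate 5.

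The Ifit proteins, which bind foreign RNA in the cytosol, differed from each other in their group means. Ifit2 (chromosome 19, 34550694 to 34576419, plus strand) had 11.6, 7.26, 8.43, 5.02 and 5.54 CPM in KO AAV, against 7.18, 10.99, 3.05, 8.01 and 10.4 CPM in KO saline, and 2.73, 3.68 and 10.9 CPM (lowest, median and highest) in WT saline. Both knockout groups averaged more than WT saline but overlapped with it: the log2 change was 0.59 in KO saline against WT saline (SE 0.37, 95% interval -0.18 to 1.36; edgeR adjusted p = 0.995) and 0.52 in KO AAV against WT saline (SE 0.36, -0.23 to 1.27; adjusted p = 0.881). Without WT saline replicate 5, the library with 10.9 CPM, these were 0.89 and 0.83, and without KO AAV replicate 1 the change in KO AAV against WT saline was 0.32. Ifit3 averaged 6.17 ± 1.64 CPM in KO AAV, 6.39 ± 3.01 CPM in KO saline and 6.61 ± 2.25 CPM in WT saline, and lay within 1 SE of 0 in all 3 comparisons. Ifit1, below the count filter, is given with the low members. The 3 genes lie in a cluster of related sequence on chromosome 19, and the sources do not say how reads were divided among related genes.

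Ifitm3, which blocks viral entry at membranes, averaged 9.98 ± 3.25 CPM in KO AAV, 13.1 ± 8.53 CPM in KO saline and 9.95 ± 2.53 CPM in WT saline. KO saline replicate 3 had 27.5 CPM, and the other KO saline libraries had 5.86 to 13.6 CPM. The log2 change of Ifitm3 was 0.36 in KO saline against WT saline and -0.079 without that library, and it was -0.38 in KO AAV against KO saline and 0.065 without it (-0.24 without KO AAV replicate 2). Ifih1, the cytosolic sensor of long double-stranded RNA known as MDA5, averaged 4.67 ± 1.60 CPM in KO AAV, 6.57 ± 1.38 CPM in KO saline and 5.43 ± 2.29 CPM in WT saline (log2 change -0.49, SE 0.34, in KO AAV against KO saline). Rsad2, the antiviral enzyme viperin, averaged 5.93 ± 1.53 CPM in KO AAV, 6.06 ± 3.04 CPM in KO saline and 6.38 ± 1.77 CPM in WT saline, within 1 SE of 0 in each comparison.

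The guanylate-binding genes, whose GTPases attack the vacuoles and membranes of intracellular microbes, had log2 changes on both sides of 0. Gbp3 (chromosome 3, 142560026 to 142573209, plus strand) had 3.70, 2.79, 4.74, 5.02 and 7.39 CPM in KO AAV, against 2.39, 2.20, 3.82, 1.14 and 6.11 CPM in KO saline, and 4.11, 5.64 and 9.80 CPM (lowest, median and highest) in WT saline. In 4 of 5 KO saline libraries Gbp3 lay below every WT saline library, and KO saline replicate 5 lay within the WT saline range. The log2 change was -0.99 in KO saline against WT saline (SE 0.38, 95% interval -1.79 to -0.20; edgeR adjusted p = 0.995), the lowest unadjusted p of a member in that comparison. It was 0.56 in KO AAV against KO saline (SE 0.42, -0.30 to 1.43) and -0.43 in KO AAV against WT saline (SE 0.34, -1.13 to 0.28). Gbp3 lay close to the count filter. It was not tested without WT saline replicate 1, 3 or 5, libraries of the group where it averaged most. In KO AAV against KO saline the change of Gbp3 was 0.34 without KO saline replicate 4, 1.02 without KO saline replicate 5 and 0.38 without KO AAV replicate 5; it was 0.32 when the 2 libraries of the lowest RNA integrity number (8) were left out.

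Gbp7 (chromosome 3, 142530342 to 142550149, plus strand), the next gene of the cluster, had 7.39, 8.38, 10.5, 7.25 and 6.77 CPM in KO AAV, against 7.97, 9.52, 9.92, 12.0 and 6.11 CPM in KO saline, and 3.20, 7.78 and 9.71 CPM (lowest, median and highest) in WT saline. Its log2 change was 0.39 in KO saline against WT saline (SE 0.28, 95% interval -0.18 to 0.96), on the other side of 0 from Gbp3, and was 0.25 without KO saline replicate 4 and 0.22 without WT saline replicate 6. The ranges overlapped in every comparison. Gbp2 averaged 4.94 ± 2.40 CPM in KO AAV, 5.61 ± 1.96 CPM in KO saline and 4.64 ± 1.77 CPM in WT saline, and lay within 1 SE of 0 throughout. These genes are close relatives, Gbp7 shares exon sequence with Gm43802 on its own strand, and the split of reads among them is uncertain.

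**Figure D2:**
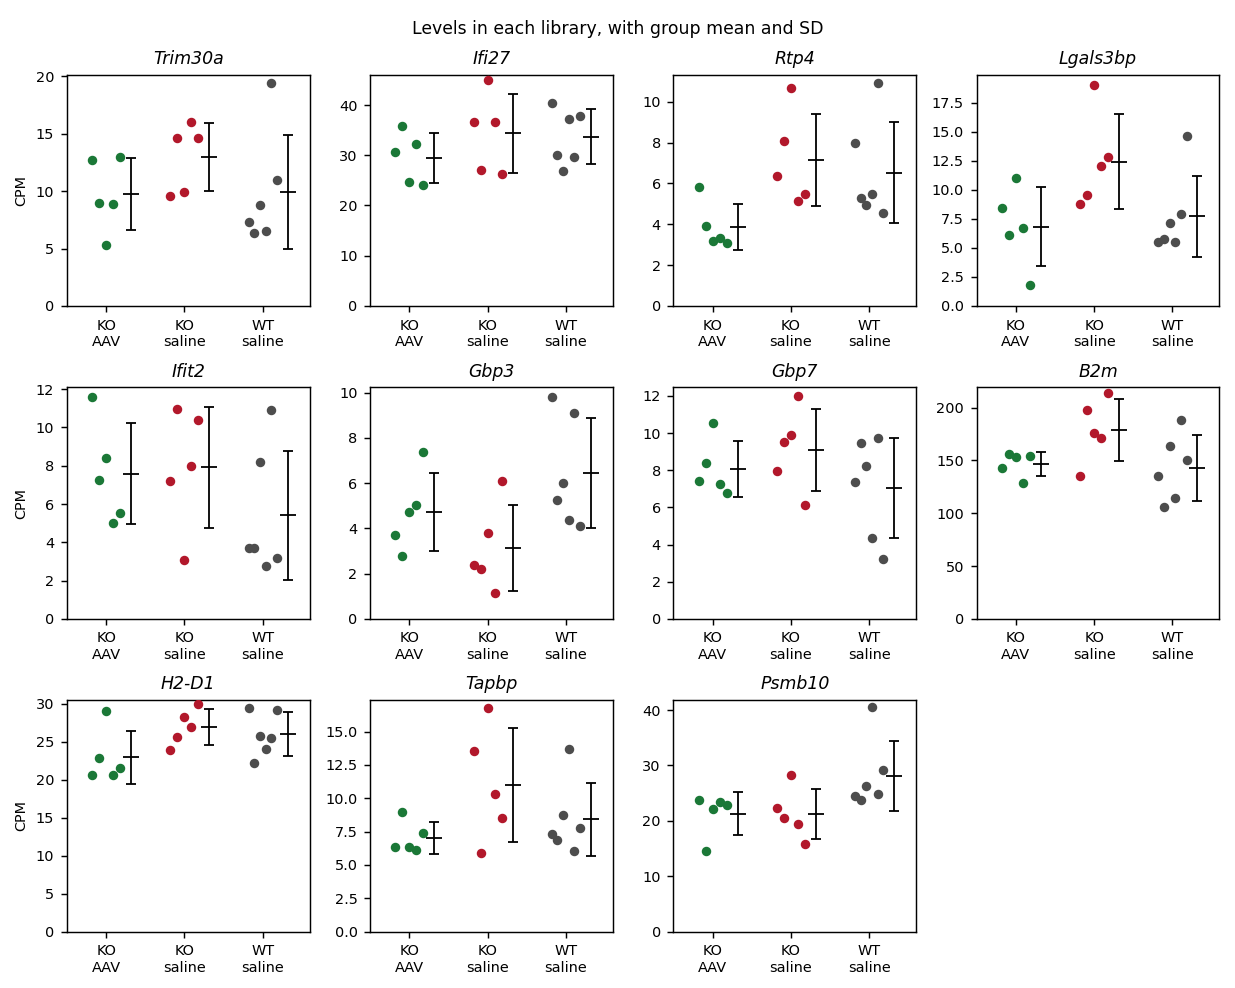
Level of 11 members in each library in CPM (points), with the group mean and SD (dash and bars), for KO AAV (n = 5), KO saline (n = 5) and WT saline (n = 6). Rtp4 lay low in 4 of 5 KO AAV libraries and Gbp3 in 4 of 5 KO saline libraries, and the ranges of the groups overlap in every panel.

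Of the MHC class I chains, B2m averaged more in KO saline than in either other group, while both heavy chains lay within 1 SE of 0 in KO saline against WT saline. B2m (chromosome 2, 122147686 to 122153083, plus strand), beta-2-microglobulin, the light chain shared by all class I molecules, had 143, 156, 153, 128 and 154 CPM in KO AAV. It had 136, 198, 176, 172 and 214 CPM in KO saline, and 105, 143 and 188 CPM (lowest, median and highest) in WT saline. In KO saline 4 of 5 libraries lay above every KO AAV library, and replicate 1 lay within the KO AAV range. The log2 change was 0.32 in KO saline against WT saline (SE 0.14, 95% interval 0.03 to 0.62; edgeR adjusted p = 0.995) and -0.29 in KO AAV against KO saline (SE 0.15, -0.60 to 0.02; adjusted p = 1.00). In KO AAV against WT saline B2m lay within 1 SE of 0, with an interval of -0.26 to 0.33. Counts of 100 or more were deposited to 2 significant digits, which affects B2m by at most 5% and no other member.

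H2-D1 (chromosome 17, 35262730 to 35267499, plus strand), a class I heavy chain, had 20.6, 22.9, 29.0, 20.6 and 21.6 CPM in KO AAV, against 23.9, 25.6, 28.2, 26.9 and 29.9 CPM in KO saline, and 22.1, 25.6 and 29.4 CPM (lowest, median and highest) in WT saline. Apart from KO AAV replicate 3, the KO AAV libraries of H2-D1 lay below all KO saline libraries. Its log2 change was -0.23 in KO AAV against KO saline (SE 0.15, 95% interval -0.54 to 0.08) and -0.18 in KO AAV against WT saline (SE 0.14, -0.47 to 0.11; edgeR adjusted p = 0.881). Without KO AAV replicate 3 the change in KO AAV against WT saline was -0.28. H2-K1, the other classical heavy chain of this strain, averaged 22.8 ± 5.37 CPM in KO AAV, 25.5 ± 5.35 CPM in KO saline and 26.4 ± 6.12 CPM in WT saline. In KO saline against WT saline the intervals were -0.24 to 0.35 for H2-D1 and -0.47 to 0.34 for H2-K1. Class I heavy chains share long stretches of sequence, so the split of reads between them is uncertain.

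In the peptide-loading group Tapbp alone was tested. Tapbp (chromosome 17, 33915899 to 33929292, plus strand), tapasin, which holds empty class I molecules at the peptide transporter, had 6.34, 8.94, 6.32, 6.13 and 7.39 CPM in KO AAV. It had 13.6, 5.86, 16.8, 10.3 and 8.55 CPM in KO saline, and 6.07, 7.56 and 13.7 CPM (lowest, median and highest) in WT saline. The KO saline values spread the most, and KO saline replicate 2 lay below all KO AAV libraries. The log2 change was -0.63 in KO AAV against KO saline (SE 0.28, 95% interval -1.21 to -0.05; edgeR adjusted p = 1.00) and 0.37 in KO saline against WT saline (SE 0.26, -0.17 to 0.91). Without KO saline replicate 3 these were -0.43 and 0.17. Tapbp shares exon sequence with Zbtb22 on its strand and with Gm19412 on the other.

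The immunoproteasome replaces catalytic subunits of the ordinary proteasome when interferon gamma acts, and its 3 subunits differed in the order of their group means. Psmb10 (chromosome 8, 105935735 to 105938444, minus strand) had 23.8, 14.5, 22.1, 23.4 and 22.8 CPM in KO AAV, against 22.3, 20.5, 28.2, 19.5 and 15.9 CPM in KO saline, and 23.7, 25.6 and 40.5 CPM (lowest, median and highest) in WT saline. In 4 of 5 KO saline libraries and in 4 of 5 KO AAV libraries Psmb10 lay below every WT saline library. The log2 change was -0.42 in KO saline against WT saline (SE 0.19, 95% interval -0.80 to -0.03; edgeR adjusted p = 0.995) and -0.40 in KO AAV against WT saline (SE 0.18, -0.78 to -0.03; adjusted p = 0.881). Without WT saline replicate 4 the change in KO AAV against WT saline was -0.26. Between the knockout groups Psmb10 lay within 1 SE of 0, with an interval of -0.40 to 0.43. With males alone, an alternative added after seeing the data, the change in KO saline against WT saline was -0.14. The ordinary subunits that the immunoproteasome replaces, Psmb5, Psmb6 and Psmb7, had log2 changes of -0.24, -0.17 and -0.20 in KO saline against WT saline, none of which passed (edgeR adjusted p = 0.995 each).

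The 18 members below the count filter had few tags each, and single libraries at 0 were common. Of these, 13 had at least 30 counts in total and were compared by two-sided exact permutation tests on CPM, 39 tests in all, of which 4 gave a p under 0.05 without adjustment. Of the 13, 1 had such a p in KO saline against WT saline (5.41% of all 3457 genes below the filter with 30 or more counts), 2 in KO AAV against KO saline (4.74%) and 1 in KO AAV against WT saline (5.18%). None of the 18 passed in the edgeR fit with no count filter, adjusted over 24497 genes. In that fit 1 of the 18 had a p under 0.05 without adjustment in KO saline against WT saline (4.8% of all genes), 1 in KO AAV against KO saline (3.14%) and 2 in KO AAV against WT saline (5.26%).

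Ifit1 had 1.58, 2.79, 2.63, 1.67 and 2.46 CPM in KO AAV (20 counts), 3.99, 2.93, 3.82, 3.43 and 6.11 CPM in KO saline (30 counts), and 2.19, 4.69 and 6.02 CPM (lowest, median and highest; 47 counts) in WT saline. Every KO AAV library lay below every KO saline library, which held for 0.511% of the tested genes in either direction. Ifit1 is not among the tested genes, and that share was not taken for genes below the filter. The difference in means, -1.83 CPM in KO AAV against KO saline, had an exact p of 0.00794, the smallest that 5 against 5 animals allow. Against WT saline the groups overlapped and the exact p was 0.0390. In the fit with no count filter, edgeR gave Ifit1 a log2 change of -0.82 (SE 0.48; adjusted p = 0.836) and -0.91 (SE 0.44; adjusted p = 0.731) in those comparisons.

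Tap1, a chain of the peptide transporter, had 1.06, 0.558, 0.527, 0 and 2.46 CPM in KO AAV (8 counts), 0, 0.733, 0, 0.572 and 0 CPM in KO saline (2 counts), and 0.527, 1.83 and 3.04 CPM (lowest, median and highest; 20 counts) in WT saline. In 3 KO saline libraries Tap1 was not detected, while every WT saline library had it, and the lowest WT saline value lay within the KO saline range. The exact p in KO saline against WT saline was 0.00866, and edgeR with no count filter gave an adjusted p of 0.745. The other chain, Tap2, averaged 2.11 ± 1.99 CPM in KO AAV, 1.42 ± 1.36 CPM in KO saline and 1.2 ± 0.320 CPM in WT saline.

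Psmb9 had 0.528, 1.12, 0.527, 0 and 1.85 CPM in KO AAV (7 counts), 0.797, 2.93, 3.05, 2.86 and 1.83 CPM in KO saline (17 counts), and 0.527, 1.46 and 3.28 CPM (lowest, median and highest; 17 counts) in WT saline. In 3 of 5 KO saline libraries it lay above every KO AAV library. The exact p was 0.0397 in KO AAV against KO saline, and the edgeR adjusted p with no count filter was 0.836. Tap1 and Psmb9 overlap in their exons on opposite strands, and the strand setting of the counting was not stated in the sources, so their tags cannot be told apart with certainty. Psmb8 averaged 2.40 ± 1.26 CPM in KO AAV, 4.04 ± 1.43 CPM in KO saline and 2.21 ± 1.27 CPM in WT saline (exact p = 0.0563 for KO saline against WT saline and 0.0952 for KO AAV against KO saline).

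**Figure D3:**
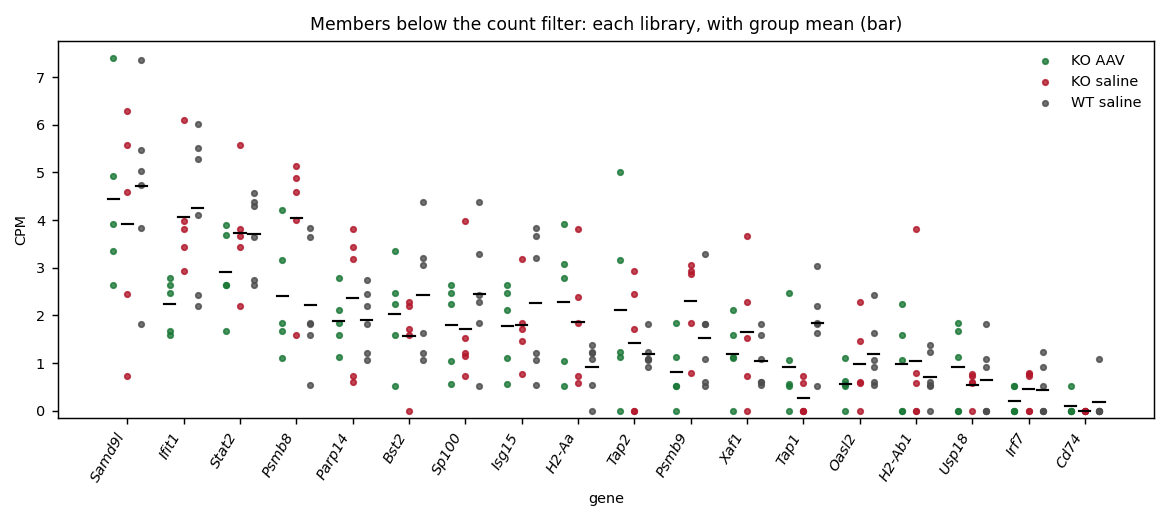
Level in CPM of the 18 members below the count filter in each library (points) with the group mean (bar); KO AAV, KO saline and WT saline stand left to right for each gene. Ifit1 is the gene whose KO AAV and KO saline points do not overlap, and Tap1 was at 0 in 3 of 5 KO saline libraries.

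Of the MHC class II genes, H2-Aa, the alpha chain, averaged 2.27 ± 1.43 CPM in KO AAV (20 counts), 1.87 ± 1.33 CPM in KO saline (13 counts) and 0.908 ± 0.529 CPM in WT saline (10 counts). The exact p was 0.0736 in KO AAV against WT saline and 0.123 in KO saline against WT saline. H2-Ab1, the beta chain, had 9 counts in KO AAV, 7 in KO saline and 8 in WT saline, and Cd74, the invariant chain, had 1 in KO AAV, 0 in KO saline and 2 in WT saline.

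For the remaining low members the counts summed over a group are given, from 5 KO AAV, 5 KO saline and 6 WT saline libraries. Isg15, the ubiquitin-like protein, had 16 counts in KO AAV, 13 in KO saline and 25 in WT saline. Bst2, the tether of budding virus, had 18 in KO AAV, 11 in KO saline and 27 in WT saline, and Samd9l had 40 in KO AAV, 29 in KO saline and 52 in WT saline. Parp14, an ADP-ribosyltransferase, had 17 in KO AAV, 17 in KO saline and 21 in WT saline. None of these had an exact p under 0.05, nor did Stat2, Sp100, a nuclear body protein with 16 in KO AAV, 12 in KO saline and 27 in WT saline, or Xaf1 with 11 in KO AAV, 13 in KO saline and 12 in WT saline. The members under 30 counts were not compared. Irf7, the factor that amplifies type I interferon, had 2 in KO AAV, 3 in KO saline and 5 in WT saline. Usp18, which dampens the receptor, had 8 in KO AAV, 4 in KO saline and 7 in WT saline, and Oasl2 had 5 in KO AAV, 7 in KO saline and 13 in WT saline.

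Across the 18 tested members no library was high or low in all of them. KO saline replicate 3 was the highest of its group in 9 of 18 (Irf9, Ifitm3, Ifi27, Rtp4, Rsad2, Lgals3bp, H2-K1, Tapbp and Psmb10), with a median 0.31 above the mean of the 16 libraries on the log2(CPM + 1) scale. WT saline replicate 5 was the highest of its group in 7 of 18 (Irf9, Trim30a, Ifit2, Rtp4, Gbp2, Gbp7 and B2m), with a median of 0.20. The medians of the KO AAV libraries ran from -0.21 to -0.05, those of KO saline from -0.01 to 0.31, and those of WT saline from -0.13 to 0.20.

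**Figure D4:**
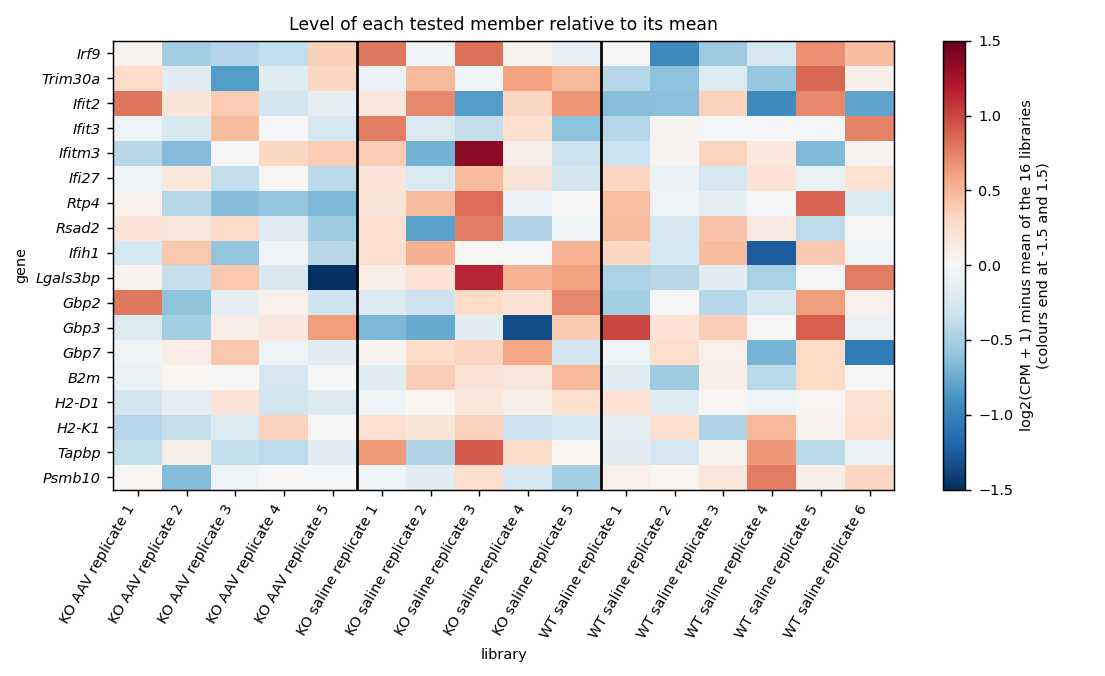
Log2(CPM + 1) of each tested member in each library minus its mean over the 16 libraries, with KO AAV, KO saline and WT saline from left to right. KO saline replicate 3 is red in Ifitm3, Lgals3bp and Tapbp, WT saline replicate 5 in Trim30a, Rtp4 and Gbp3, and no block of genes is of one colour across a whole group.

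Markers of other cell types were read in the same libraries. The summed level of 11 microglia markers was 562 to 665 CPM in KO AAV, 666 to 938 CPM in KO saline and 499 to 641 CPM in WT saline, and KO saline replicate 3 was the highest. Of the 11, 9 lay above 0 in KO saline against WT saline (50.7% of all genes) and 10 lay below 0 in KO AAV against KO saline (52.7%). One passed: Ctss, a lysosomal protease, rose in KO saline against WT saline by a log2 change of 0.64 (SE 0.09; edgeR adjusted p = 0.00225), and its change in KO AAV against KO saline was -0.49 (SE 0.10; adjusted p = 0.222). Ctss also had the most counts of the 11 markers in every library. It therefore weighs heavily in the summed levels, which were not taken without it. In whole tissue, more microglia and more RNA per microglial cell cannot be told apart. Neutrophil and monocyte markers summed to 2.46 to 9.49 CPM in KO AAV, 7.94 to 28.7 CPM in KO saline and 2.28 to 14.8 CPM in WT saline, with Ly6g at 0 throughout. S100a8 had 1 to 24 counts per library and S100a9 had 0 to 7. That sum therefore rests mainly on S100a8 and S100a9 and was not taken without them.

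Of 14 lymphocyte and dendritic cell markers, 7 were at 0 in all 16 libraries, among them Cd3e, Cd8a, Cd79a, Nkg7 and Xcr1. The list summed to 14.2 to 25.1 CPM in KO AAV, 13.9 to 21.98 CPM in KO saline and 11.9 to 28.5 CPM in WT saline. Siglech had 11 to 34 counts per library and Cd4 had 0 to 27. The sum therefore rests mainly on Siglech and Cd4, was not taken without them, and says little about the other markers. Markers of border macrophages summed to 10.5 to 15.6 CPM in KO AAV, 11.4 to 18.3 CPM in KO saline and 6.56 to 17.8 CPM in WT saline. Markers of endothelium summed to 406 to 580 CPM in KO AAV, 453 to 539 CPM in KO saline and 425 to 543 CPM in WT saline. Astrocyte markers summed to 9096 to 10638 CPM in KO AAV, 9495 to 11846 CPM in KO saline and 9282 to 10955 CPM in WT saline. The part of these cell types in the members' levels was not tested.

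Other genes of the same pathway, a list of 95 of which 29 were tested, gave no called gene in any comparison by edgeR. At an edgeR p under 0.05 without adjustment stood 2 of the 29 in KO saline against WT saline (4.12% of all genes). There were 2 in KO AAV against KO saline (2.55%) and 0 in KO AAV against WT saline (3.99%). In KO saline against WT saline 18 lay above 0 and 11 below (median 0.07), where 50.7% of all genes lay above 0. In KO AAV against KO saline 11 lay above and 18 below (-0.04), where 47.3% of all genes lay above. In KO AAV against WT saline 13 lay above and 16 below (-0.02), where 48.5% of all genes lay above. Among receptors, kinases and factors, Stat3, which carries signals of the interleukin-6 family, had 36.3 to 48.1 CPM in KO AAV, 47.6 to 62.2 CPM in KO saline and 36.5 to 49.0 CPM in WT saline. Its log2 change was 0.41 in KO saline against WT saline (SE 0.12; edgeR adjusted p = 0.995) and -0.40 in KO AAV against KO saline (SE 0.13; adjusted p = 1.00). Irf8, a factor of microglia and other myeloid cells, averaged 4.86 ± 0.892 CPM in KO AAV, 7.96 ± 2.77 CPM in KO saline and 5.55 ± 1.96 CPM in WT saline. The receptor chain Ifnar2 averaged 9.83 ± 2.08 CPM in KO AAV, 9.53 ± 3.33 CPM in KO saline and 8.52 ± 2.43 CPM in WT saline.

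In the sensing of nucleic acids, Tbk1, the kinase that activates IRF3, averaged 31.1 ± 6.15 CPM in KO AAV, 27.9 ± 6.48 CPM in KO saline and 24.4 ± 3.35 CPM in WT saline. Its log2 change in KO AAV against WT saline was 0.34 (SE 0.17; edgeR adjusted p = 0.881). Tlr3, an endosomal receptor of double-stranded RNA, averaged 14.6 ± 3.12 CPM in KO AAV, 14.8 ± 5.19 CPM in KO saline and 11.5 ± 3.27 CPM in WT saline, and Adar, which edits such RNA, averaged 37.2 ± 4.76 CPM in KO AAV, 39.9 ± 5.45 CPM in KO saline and 43.8 ± 10.5 CPM in WT saline. Among other interferon-stimulated genes, Dtx3l, a ubiquitin ligase, had a log2 change of 0.51 (SE 0.30) in KO saline against WT saline and 0.49 (SE 0.28) in KO AAV against WT saline. Tor3a had -0.55 (SE 0.33) in KO AAV against KO saline, and Irgm2, an immunity-related GTPase, had -0.63 (SE 0.46) in KO AAV against WT saline. Shisa5 averaged 58.7 ± 11.7 CPM in KO AAV, 54.9 ± 15.4 CPM in KO saline and 62.1 ± 9.81 CPM in WT saline, and Slfn5 averaged 8.80 ± 2.13 CPM in KO AAV, 7.48 ± 2.29 CPM in KO saline and 8.20 ± 2.50 CPM in WT saline.

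In antigen presentation outside the members, the chaperone Calr averaged 156 ± 23.8 CPM in KO AAV, 141 ± 19.7 CPM in KO saline and 182 ± 42.2 CPM in WT saline. Its log2 change was -0.37 in KO saline against WT saline (SE 0.15; edgeR adjusted p = 0.995). Pdia3, which works with it on class I folding, had -0.28 (SE 0.18) in the same comparison. H2-DMa, which loads peptide on class II, averaged 5.91 ± 2.69 CPM in KO AAV, 7.66 ± 0.758 CPM in KO saline and 7.51 ± 2.01 CPM in WT saline. None of these pathway genes passed the test.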

How the data were processed

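Polyadenylated RNA of cortex was sequenced with QuantSeq 3' FWD libraries and molecular identifiers that allow PCR duplicates to be removed, per the labels' protocols. STAR, edgeR 3.40.2 under R 4.2, FastQC 0.11.5, MultiQC 1.0 and the build GRCm38.p6 are named in the submitters' processing notes. The annotation release, the program that counted reads and its strand setting were not stated in those sources. Deposited by the authors were raw counts per gene, in which all 46347 values of 100 or more have at most 2 significant digits. They also deposited depth-scaled counts as a signal (CPM) table, and normalization factors, a ratio per library, in a sample annotation that also gives sex.

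Counts were filtered with filterByExpr, scaled by TMM and tested with edgeR's quasi-likelihood test (edgeR 4.0.16, R 4.3.3) in a single model of the 16 libraries with no factor but group, Benjamini-Hochberg adjusted over 10363 genes at a threshold of 0.05; the common biological coefficient of variation was 0.181. Levels (CPM) divide each count by its TMM-scaled library total. Animals are the replicates. Total counts of 1351974 to 2119019 per library limit precision most for members of few counts. Intervals are 95% intervals of the fit.

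The members and all gene lists were chosen with earlier results of these data known, so no list is given a p. Members of low counts were compared by two-sided exact permutation tests from 30 counts upward. Members named with values in each library are the 4 of lowest p per comparison and the most counted tested one per role; pathway genes named are the 2 of lowest p per list and comparison, of which 1 is not reported here. Positions are from GENCODE M21 (GRCm38), promoters from RefSeq (GRCm38.p6). Of 12 microglia markers 11 were used here. Alternatives were DESeq2 1.42.0, limma-voom and limma 3.58.1 on log2(deposited CPM + 0.25), other scaling and filters, sex as a term, a replicate block, leaving out libraries, and males alone (added after seeing the data). The fit was tested on simulated data.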

Additional observations from a re-analysis of the deposited data

Results flagged for a closer look

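In 7 of 54 sets of a tested member in a group, 1 library stood far from the others. The rule flags about 1 in 20 sets of normal values, which these CPM values need not follow. The sets also share libraries, and the share over all tested genes was not taken, so 7 cannot be read as an excess. Trim30a had 19.4 CPM in WT saline replicate 5, where the other WT saline libraries had 6.33 to 10.96. Ifit3 had 10.96 CPM in WT saline replicate 6, above 4.29 to 6.33 CPM in the rest. Lgals3bp had 14.6 CPM in the same library, above 5.47 to 7.89 CPM. Tapbp had 13.7 CPM in WT saline replicate 4, above 6.07 to 8.75 CPM, and Psmb10 had 40.5 CPM in that library, above 23.7 to 29.2 CPM. In KO AAV, H2-D1 had 29.0 CPM in replicate 3, above 20.6 to 22.9 CPM, and Psmb10 had 14.5 CPM in replicate 2, below 22.1 to 23.8 CPM.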

How the results depend on the processing

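No member and no other pathway gene passed under any alternative run (DESeq2, limma-voom, limma on deposited CPM, other scaling, other filters, replicate block, sex as a term, 2 libraries of RNA integrity number 8 left out, males only, each library left out). Of the 54 log2 changes of tested members, 26 lay within 1 SE of 0, and 89 of their 696 recomputed values, in 19 of the 26, lay on the other side of 0. For the 28 changes larger than their SE, 739 recomputed values kept their direction and 2 reversed, both of Ifitm3 without KO saline replicate 3: -0.079 in KO saline against WT saline (leaving out single libraries gave -0.079 to 0.54) and 0.065 in KO AAV against KO saline (-0.55 to 0.065). Leaving out single libraries gave members' medians of 0.10 to 0.31 in KO saline against WT saline, -0.28 to -0.18 in KO AAV against KO saline and -0.20 to -0.062 in KO AAV against WT saline. In the last, the median was -0.070 with a replicate block and -0.030 in males only. Of the 39 exact tests of low members, 4 had a p under 0.05. Leaving out single libraries gave 2 to 6, leaving out both libraries of RNA integrity number 8 gave 2, and males only gave 1. With males only, KO AAV against WT saline sets 3 animals against 3, where no exact p can fall under 0.05. Smaller groups raise the smallest possible exact p, so these counts cannot be compared directly. Any cause beyond group size was not tested. Whether replicate numbers pair the animals cannot be told. Over 15 pairs of same-numbered libraries the correlation of deviations ran from -0.43 to 0.44, and 5 exceeded 0.1. Libraries of different numbers were not correlated for comparison. With the replicate block, 3, 1 and 1 of all genes passed in the 3 comparisons (5, 2 and 1 without it), with no count filter 16, 4 and 2, and in males only 2, 0 and 1. DESeq2 passed 5, 3 and 1 genes, and limma on deposited CPM 4, 0 and 1. Depth limits the 18 members below the filter most, where 5 had fewer than 30 counts.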
